A study of Mus musculus with 4 samples.

Results

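The data describe 9 genes, the peptide genes *Oxt* (oxytocin), *Avp* (vasopressin), *Crh* (corticotropin-releasing hormone) and *Trh* (thyrotropin-releasing hormone) and the receptor genes *Oxtr*, *Avpr1a*, *Crhr1*, *Crhr2* and *Trhr*, chosen by symbol among the 31053 genes of a single-nucleus RNA sequencing dataset of the hypothalamic arcuate nucleus (ARC). The libraries came from wildtype male C57BL/6J mice, 10 weeks of age, after 3 weeks of deoxycorticosterone acetate and salt (DOCA-salt) or of sham treatment (Sham). There were 2 libraries per group, and each held the pooled nuclei of 2 mice taken from ARC punches. Levels are given as CPM, that is, unique molecular identifiers (UMIs) of a gene per 1e6 UMIs of the nuclei summed. The questions were which nuclei held each transcript above the free RNA of their own library, which neurons held the receptors, and whether any level differed between DOCA-salt and Sham.

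Oxytocin and vasopressin are made mainly by magnocellular and parvocellular neurons of the paraventricular and supraoptic nuclei, and vasopressin also by neurons of the suprachiasmatic nucleus. CRH and TRH neurons of the paraventricular nucleus drive the pituitary axes of the adrenal and the thyroid. OXTR, AVPR1A and TRHR act mainly through Gq and phospholipase C, and CRHR1 and CRHR2 mainly through Gs and cyclic AMP. DOCA-salt is a model of mineralocorticoid excess with a raised sodium load, a state in which vasopressin release is a central regulated step.

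*Oxt* (chr2:130576173-130577054, plus strand) and *Avp* (chr2:130580620-130582554, minus strand) lie tail to tail, 3565 bases apart in the mm10 annotation. Their promoters and that of *Trh* are shown because these 3 peptides carried most of the signal described here. Each runs 5′ to 3′ on the gene's strand from 250 bases before to 50 bases after the annotated start (RefSeq, GRCm38.p6), with capitals marking AGGTCA, a nuclear receptor site, or CACGTG, the E-box letters, found on either strand.
Oxt, chr2:130575919-130576218, plus strand: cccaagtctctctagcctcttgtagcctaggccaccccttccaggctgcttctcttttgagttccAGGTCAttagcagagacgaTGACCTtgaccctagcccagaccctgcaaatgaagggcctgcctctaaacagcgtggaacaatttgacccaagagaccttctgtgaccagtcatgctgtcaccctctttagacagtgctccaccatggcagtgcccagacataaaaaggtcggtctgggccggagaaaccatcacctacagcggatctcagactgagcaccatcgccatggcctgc
Avp, chr2:130582539-130582838, minus strand: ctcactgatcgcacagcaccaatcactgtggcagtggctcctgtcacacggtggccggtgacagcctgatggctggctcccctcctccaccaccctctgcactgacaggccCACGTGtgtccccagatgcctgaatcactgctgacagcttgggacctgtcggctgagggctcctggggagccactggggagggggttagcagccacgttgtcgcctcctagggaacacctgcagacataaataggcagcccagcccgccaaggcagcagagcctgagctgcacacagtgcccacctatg
Trh, chr6:92244601-92244900, minus strand: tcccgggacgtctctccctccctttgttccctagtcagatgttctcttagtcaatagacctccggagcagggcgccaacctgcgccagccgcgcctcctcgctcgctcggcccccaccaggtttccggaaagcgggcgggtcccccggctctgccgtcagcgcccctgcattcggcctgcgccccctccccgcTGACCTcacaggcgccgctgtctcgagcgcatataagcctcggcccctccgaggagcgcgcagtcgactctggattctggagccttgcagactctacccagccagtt
The *Oxt* window held AGGTCA at -185 and its reverse complement TGACCT at -166, counted from the start. The *Avp* window held CACGTG at -139, and the *Trh* window held TGACCT at -57. Among 32851 mouse promoter windows of the same length, 7.15% held CACGTG and 16.3% held AGGTCA on either strand, so these matches are descriptions of the windows and were not tied to any measured binding. The *Oxtr* window held both motifs, at -43 and -98, and the windows of *Avpr1a*, *Crhr1* and *Crhr2* held neither.

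*Oxt* and *Avp* also share coding sequence for the neurophysin part of their precursors. The longest identical stretch of the 2 transcripts was 127 bases, at bases 156 to 282 of the 537 bases of *Oxt* and at bases 144 to 270 of the 577 bases of *Avp*, and is shown because reads confined to it cannot be assigned to one gene.
Oxt and Avp shared run: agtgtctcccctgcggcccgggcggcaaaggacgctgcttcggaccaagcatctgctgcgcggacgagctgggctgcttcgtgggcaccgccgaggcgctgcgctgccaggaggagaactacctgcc
It ended 255 bases from the 3′ end of *Oxt* and 307 bases from that of *Avp*. The paper gives a read length greater than this run, so a full-length read would extend beyond it. Counts of the 2 genes in the same nucleus are uncertain to the extent that aligned reads were confined to it, which was not tested.

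After the filters of the study, 10307 (DOCA-salt 1), 18907 (DOCA-salt 2), 2203 (Sham 1) and 7759 (Sham 2) nuclei were kept, with median UMIs per nucleus of 2401, 2534, 8215 and 3278 in that order, and all values below that list 4 libraries use this order. Any pair of libraries shared 1 to 44 kept barcodes, at most 0.567% of the smaller library. Nuclei were gated by marker genes that included none of the 9 genes, giving 6566, 12490, 1482 and 4617 neurons and 226, 809, 77 and 442 oligodendrocytes. Neurons with ARC markers were present in every library, although their numbers differed, with 419, 22, 32 and 171 *Agrp* neurons and 239, 26, 29 and 188 *Pomc* neurons. Markers of neighboring regions differed as well. Suprachiasmatic-gated neurons numbered 15, 324, 35 and 56, *Sim1*-gated neurons 67, 233, 0 and 46, and orexin neurons, which belong to the lateral hypothalamus, 0, 223, 3 and 0. The *Sim1* gate pooled *Sim1*, *Otp* and *Pou3f2*, and its numbers did not follow *Sim1* itself. Over all neurons *Sim1* stood at 2.86, 22.6, 22.7 and 10.1 CPM, so the empty gate of Sham 1 does not mean that *Sim1* was absent. The numbers of gated neurons moved with several results below, and their part in them was not tested unless a value is given. Fewer nuclei of a type and less RNA per nucleus cannot be told apart in sums over neurons.

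The peptide transcripts were spread through every class. *Oxt* gave 335, 63169, 3782 and 16608 UMIs over all kept nuclei, *Avp* 367, 35204, 1700 and 7592, *Trh* 798, 14209, 2883 and 4071, and *Crh* 129, 325, 220 and 129. DOCA-salt 1 was the lowest library for *Oxt*, *Avp* and *Trh*, and DOCA-salt 2 was the highest, so the 2 DOCA-salt libraries lay on either side of both Sham libraries. *Crh* was scarce in all 4. At their own depth, 0.701%, 25.7%, 44.5% and 31.7% of neurons held an *Oxt* UMI, against 1.33%, 20.6%, 37.7% and 28.7% of oligodendrocytes, whose median depth was lower (1012, 937, 5292 and 1639 UMIs, against 3036, 2940, 9391 and 4478 in neurons). After thinning to 1000 UMIs per nucleus, the *Oxt* shares were 0.199%, 9.87%, 7.98% and 10.2% of neurons against 0%, 15.9%, 6.49% and 17.6% of oligodendrocytes. A single *Oxt* UMI in a nucleus therefore read as background in DOCA-salt 2 and Sham 2. In DOCA-salt 1 the oligodendrocyte share rested on 115 nuclei, and in Sham 1 on 77.

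The same comparison for *Avp* gave thinned shares of 0.249%, 10.7%, 4.94% and 6.64% of neurons against 0.870%, 9.14%, 2.60% and 10.7% of oligodendrocytes, so that neurons were above in DOCA-salt 2 and Sham 1 and below in the other 2 libraries. For *Trh* the neuronal share was the higher one in all 4 libraries, 1.94%, 8.84%, 9.95% and 6.48% against 0.870%, 6.49%, 2.60% and 4.68%. For *Crh* the neuronal shares were 0.299%, 0.263%, 0.880% and 0.255%, against 0%, 0.295%, 0% and 0.275% of oligodendrocytes. The 2 *Crh* shares differed by 0.880 percentage points or less in each library, and the few neurons with many *Crh* UMIs are described with the source neurons.

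**Figure D1:**
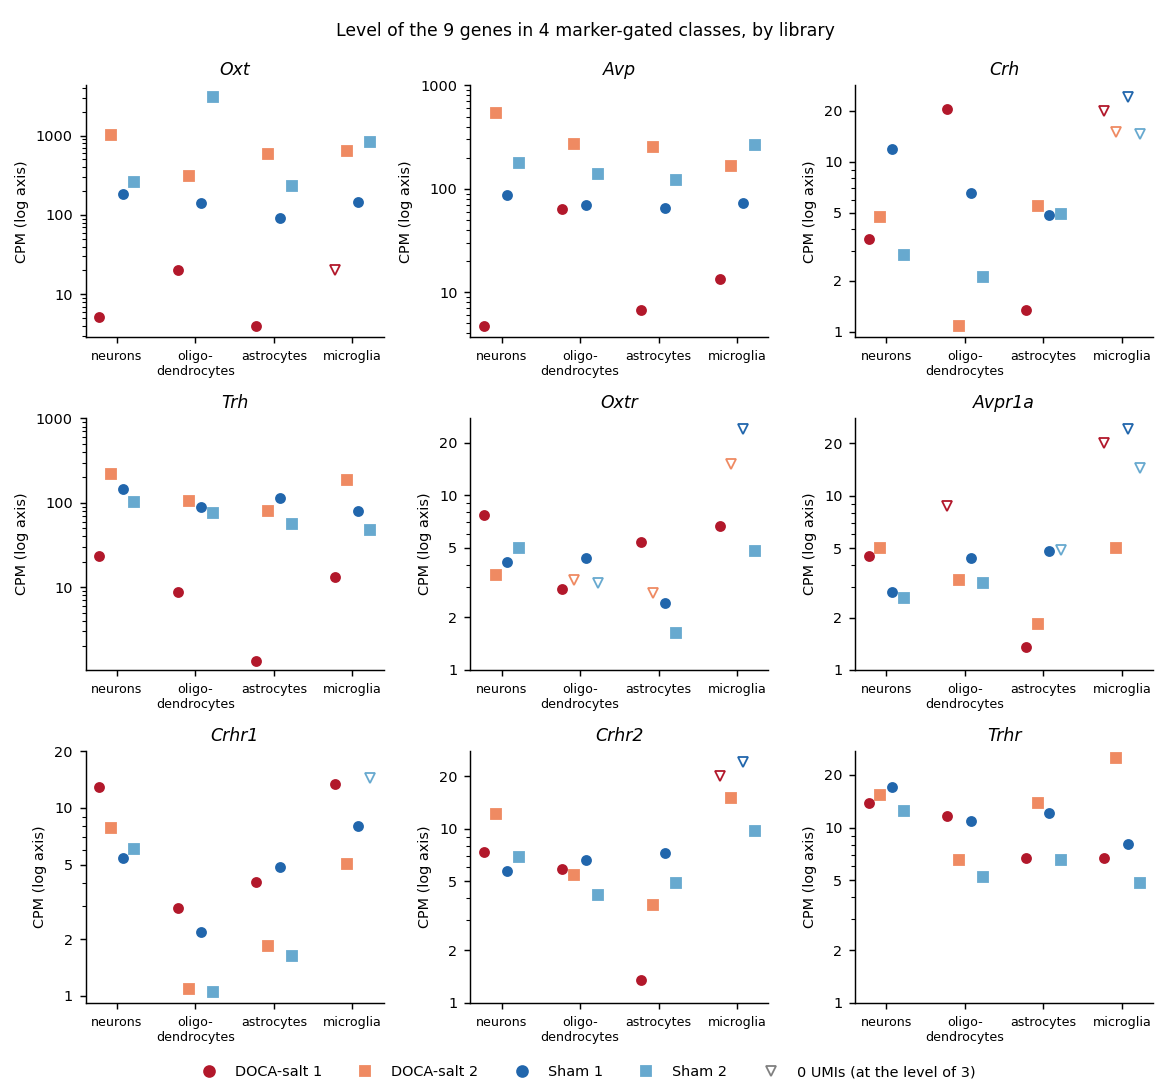
CPM (log axis) of each of the 9 genes in neurons, oligodendrocytes, astrocytes and microglia, with 1 point per library; open triangles mark classes with 0 UMIs, drawn at the CPM of 3 UMIs. *Oxt* and *Avp* of DOCA-salt 1 lie far below the other libraries in neurons, while *Crhr1* is higher in neurons than in oligodendrocytes in all 4 libraries.

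Summed over neurons, *Trh* rose over the oligodendrocytes of the same library and *Oxt*, *Avp* and *Crh* did not pass the test (edgeR quasi-likelihood test, library as block, FDR over 14607 genes). Of the 9 genes, 2 were called, *Trh* and *Crhr1*, where 38.3% of all genes tested were called. *Trh* stood at 23.5, 218, 144 and 101 CPM in neurons and at 8.76, 105, 90.0 and 75.3 CPM in oligodendrocytes, a log2 fold change of 0.58 ± 0.13 (SE, adjusted p = 1.5e-04 by edgeR). With 1 library left out the difference stayed between 0.40 and 0.76, and it missed the threshold without DOCA-salt 2 (0.40, adjusted p = 0.064). Leaving out the nuclei of 10 or more UMIs of a peptide, which removes high values by construction, gave -0.20. *Oxt* stood at 5.20, 1008, 184 and 257 CPM in neurons and at 20.4, 305, 143 and 3069 CPM in oligodendrocytes, and the Sham 2 value came mainly from 1 oligodendrocyte-gated nucleus with 2721 *Oxt* UMIs. *Oxt* had a log2 fold change of -0.77 ± 0.38 (adjusted p = 0.11 by edgeR) and *Avp* one of 0.20 ± 0.19 (adjusted p = 0.44). *Oxt* was called lower in neurons in 5 of 10 alternatives, for example at -2.12 without DOCA-salt 2, and turned to 0.87 without Sham 2 and to 0.57 with likely doublets removed. *Avp* was called higher, at 0.44, without DOCA-salt 1 and, at 0.42, with a stricter gate. Astrocytes, oligodendrocyte precursors, microglia and endothelial cells were compared with oligodendrocytes in the same way, and 3 of the 9 genes (*Oxt*, *Avp* and *Trh*) passed the filter on low counts there. None of the 3 was called in astrocytes, precursors or microglia, where 29.9%, 26.6% and 19.8% of all genes were called. *Avp* was called in endothelial cells, at 1.92 ± 0.35 (adjusted p = 8.7e-06 by edgeR, where 18.8% of genes were called), and this rested on 1 Sham 2 nucleus with 272 *Avp* and 494 *Oxt* UMIs. The difference was -0.53 without Sham 2.

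A rule was set to separate neurons that made a peptide from neurons that had picked up free RNA. A source neuron held at least 10 UMIs of the peptide and at least 10 times the free level of its library. That level was measured in oligodendrocytes with fewer than 10 such UMIs. Glial nuclei could meet the same rule, as given below, so it does not by itself show which nuclei made a peptide. The free level of *Oxt* was 20.4, 224, 100 and 183 CPM, that of *Avp* 11.7, 157, 49.1 and 127 CPM and that of *Trh* 8.76, 73.3, 90.0 and 75.3 CPM. The free level of *Crh* was 20.4, 1.09, 6.58 and 2.09 CPM, where the first value rested on 1 nucleus with 7 UMIs. The values of a peptide in its own source neurons were fixed by this rule and are given as descriptions.

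**Figure D2:**
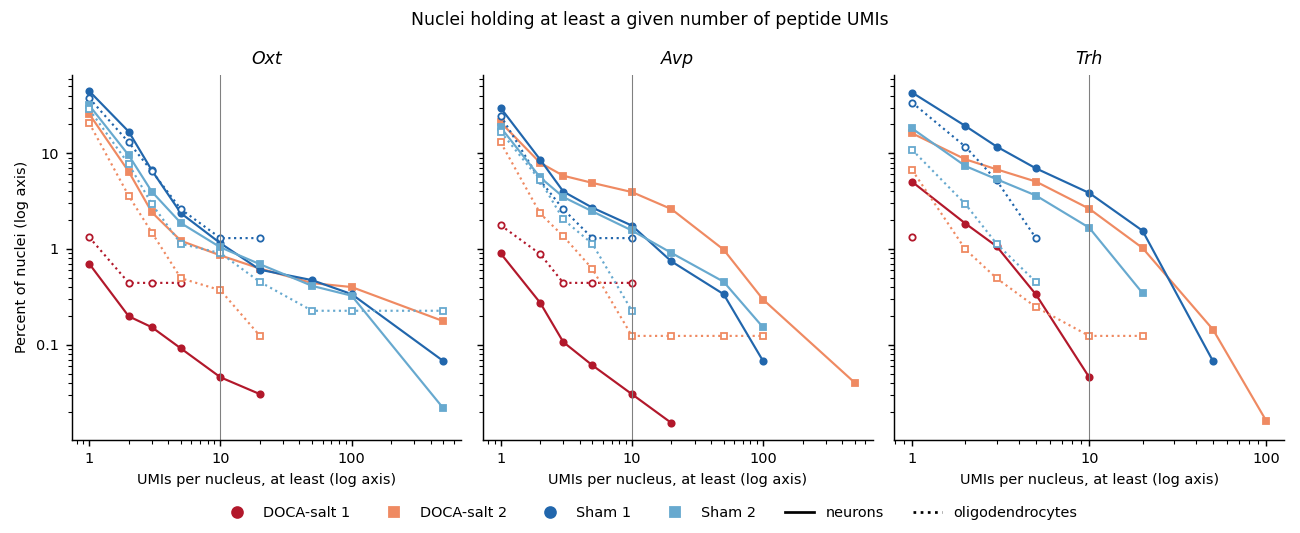
Percent of nuclei (log axis) holding at least the number of *Oxt*, *Avp* or *Trh* UMIs on the x axis (log axis), for neurons (solid lines) and oligodendrocytes (dotted lines) of each library; the vertical line marks 10 UMIs. For *Oxt* the oligodendrocyte lines run close to or above the neuron lines at low counts, and that of Sham 2 reaches the right end through its nucleus of 2721 UMIs, whereas for *Trh* the oligodendrocyte lines lie below the neuron lines of the same library.

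*Oxt* source neurons numbered 3, 88, 13 and 34, or 0.0457%, 0.705%, 0.877% and 0.736% of neurons. They held 19.7%, 74.95%, 46.7% and 28.9% of all *Oxt* UMIs of their library, with medians of 22, 136, 70 and 70.5 UMIs per nucleus and a maximum of 4191, which was in DOCA-salt 2. The 3 libraries other than DOCA-salt 1 had nearly equal shares with overlapping 95% Clopper-Pearson intervals (0.565% to 0.867%, 0.468% to 1.495% and 0.511% to 1.03%), while that of DOCA-salt 1 ran from 0.00942% to 0.133%. *Avp* source neurons numbered 2, 450, 26 and 65 (0.0305%, 3.60%, 1.75% and 1.41% of neurons), with medians of 21, 31, 17.5 and 29 UMIs. *Trh* source neurons numbered 3, 314, 44 and 69 (0.0457%, 2.51%, 2.97% and 1.49%), with medians of 12, 16, 19.5 and 14 UMIs and a maximum of 107. *Crh* source neurons numbered 0, 3, 3 and 0, and the largest count in 1 nucleus was 39. DOCA-salt 1 had the lowest share for *Oxt*, *Avp* and *Trh*, and its interval lay below those of the other 3 libraries for each. These intervals cover counting error only. After thinning to 1000 UMIs, 0%, 0.491%, 0.406% and 0.488% of neurons still met the *Oxt* rule, whereas for *Trh* only DOCA-salt 2 had any (0.123%). The *Avp* rule was then met by 0%, 1.68%, 0% and 0.418% of neurons, so the Sham 1 share depended on its depth.

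The share of source neurons averaged 0.375% ± 0.466 in DOCA-salt and 0.807% ± 0.0995 in Sham for *Oxt*, 1.82% ± 2.53 and 1.58% ± 0.245 for *Avp*, and 1.28% ± 1.75 and 2.23% ± 1.04 for *Trh* (SD, n = 2 libraries). The difference was within the spread of the DOCA-salt libraries for all 3, with two-sided exact permutation p = 0.333 for *Oxt*, exact p = 1 for *Avp* and *Crh*, and exact p = 0.667 for *Trh*. With 2 libraries against 2, the smallest exact p possible is 0.333.

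**Figure D3:**
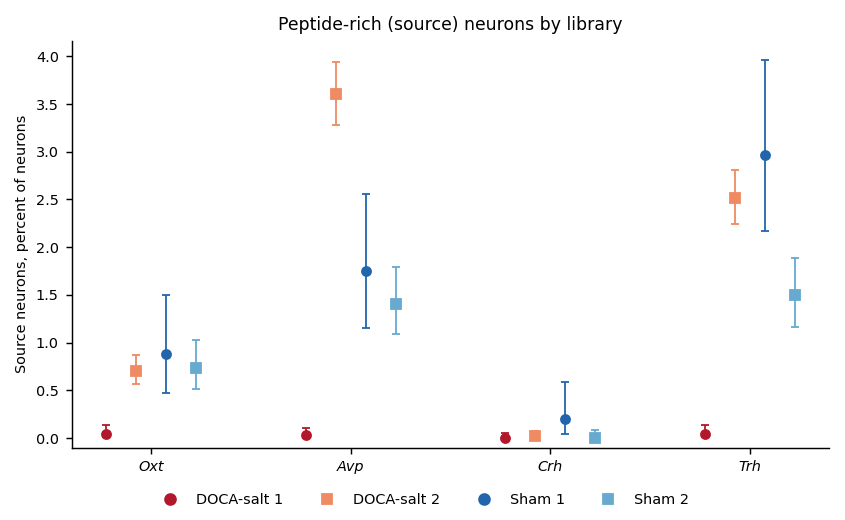
Percent of neurons that were source neurons of each peptide, 1 point per library, with bars for the 95% Clopper-Pearson interval (counting error only). DOCA-salt 1 lies at or near 0 for each peptide, and DOCA-salt 2 is the highest for *Avp* at 3.60%.

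Peptide-rich nuclei were not confined to the neuron gate. In DOCA-salt 2, 21 of 2179 mixed nuclei (carrying neuronal and glial markers) and 16 of 1924 ungated nuclei met the *Oxt* rule, as did 5 of 938 astrocytes and 3 of 809 oligodendrocytes. These shares were 0.964%, 0.832%, 0.533% and 0.371%, against 0.705% of neurons. Microglia stood at 1.33% there (2 of 150). In Sham 2, 4 of 442 oligodendrocytes (0.905%), 2 of 83 oligodendrocyte precursors (2.41%) and 1 of 51 endothelial cells (1.96%) did, against 0.736% of neurons. In Sham 1, 1 of 77 oligodendrocytes (1.30%) did, against 0.877% of neurons. Some non-neuronal gates thus met the *Oxt* rule at a share above that of neurons, on few nuclei each. The nuclei with the highest doublet scores, 2860 of 18907 in DOCA-salt 2, 39 of 2203 in Sham 1 and 482 of 7759 in Sham 2, held 28.4%, 15.4% and 8.82% of the *Oxt* source neurons and 21.1%, 3.85% and 9.23% of the *Avp* source neurons of these libraries.

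*Oxt* source neurons held more *Sim1* and *Pou3f2*, transcription factors of paraventricular and supraoptic neurons, than other neurons did. They were compared with the neurons that were source of no peptide in DOCA-salt 2, Sham 1 and Sham 2, since DOCA-salt 1 had too few (edgeR, library as block, FDR over 14032 genes, of which 0.727% were called). Of the 15 regional genes tested, 3 rose and none fell. *Sim1*, required for their development, stood at 120, 36.4 and 19.3 CPM against 17.2, 20.04 and 6.82 CPM (log2 fold change 2.47 ± 0.25), and *Pou3f2*, which acts downstream of it, at 162, 146 and 169 CPM against 36.3, 34.9 and 29.1 CPM (2.31 ± 0.18). The *Sim1* values of Sham 1 and Sham 2 rested on few UMIs, and the ± values here do not measure the spread between the 3 libraries. The gate of *Sim1* neurons (markers *Sim1*, *Otp* and *Pou3f2*) held 17 of 88 *Oxt* source neurons in DOCA-salt 2. It held 0 of 13 in Sham 1, where the gate was empty, and 1 of 34 in Sham 2. *Otp*, a homeobox gene of the same lineage, was called at 1.65 ± 0.16 but stood lower in the Sham 1 source neurons, 36.4 against 57.7 CPM. Of 16 pathway genes tested, 2 rose. *Pcsk1*, a prohormone convertase, stood at 136, 45.5 and 86.7 CPM against 28.0, 34.9 and 42.2 CPM (1.80 ± 0.20), and *Caprin2*, an RNA-binding protein known to bind *Avp* mRNA, was called at 1.76 ± 0.23 while Sham 1 was lower in source neurons, at 9.10 against 24.4 CPM. Of 16 co-transmitter genes, 4 fell (*Sst*, *Tac2*, *Gad2* and *Cartpt*) and none rose. *Sst* stood at 112, 72.8 and 130 CPM against 317, 197 and 329 CPM. The 8 called genes with the highest fold change that were higher in all 3 libraries were *Ptger4*, *Sim1*, *Uncx*, *Tns1*, *Pou3f2*, *Ebf3*, *Chml* and *Serpinf1*, with log2 fold changes from 2.03 to 3.08. *Ptger4*, a prostaglandin E2 receptor, had the highest, at 8.85, 18.2 and 19.3 CPM against 1.84, 0.626 and 1.25 CPM. It rested on few UMIs in source neurons and was scarce in other neurons, so its call is a description.

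*Avp* source neurons held more of the suprachiasmatic marker genes than other neurons. Against the same other neurons, 10.6% of 14260 genes were called, and of the 15 regional genes 4 rose (*Lhx1*, *Six6*, *Six3* and *Pou3f2*) and 4 fell (*Nr5a1*, *Fezf1*, *Isl1* and *Meis2*). *Lhx1*, a regulator of suprachiasmatic identity, stood at 53.2, 39.8 and 38.8 CPM against 13.4, 15.8 and 8.49 CPM (log2 fold change 1.93 ± 0.20), and *Six3* at 278, 174 and 299 CPM against 80.2, 94.0 and 116 CPM (1.51 ± 0.10). *Pou3f2* was called although DOCA-salt 2 did not differ in that direction, at 35.5 against 36.3 CPM, and *Meis2* although Sham 2 was higher in source neurons, at 11.4 against 3.56 CPM. Of the 16 co-transmitter genes, 3 rose (*Gad1*, *Vip* and *Cck*) and 8 fell, among them *Slc17a6*, the vesicular glutamate transporter of hypothalamic neurons, at 87.1, 193 and 114 CPM against 178, 254 and 238 CPM. The call of *Vip*, a peptide of the suprachiasmatic core, came from DOCA-salt 2 (18.5 against 3.82 CPM), as Sham 1 and Sham 2 stood at 0 and 22.8 CPM against 17.1 and 25.3 CPM. Of the 16 pathway genes, 3 rose (*Pcsk1*, *Pcsk2* and *Caprin2*) and 3 fell (*Crhbp*, which binds CRH, *Rgs2* and *Itpr1*). The 8 called genes with the highest fold change were *Nxf7*, *Sh2d4b*, *9330185C12Rik*, *Shisa8*, *Nms*, *Vipr2*, *Gm9725* and *Aldh1a2*. All except *Nms* and *Vipr2* were scarce in other neurons and reached the filter on low counts through the source neurons. Their calls are therefore descriptions, such as *Nxf7* at 3.94, 9.18 and 2.28 CPM against 0.108, 0.0696 and 0.0758 CPM. *Vipr2*, the receptor by which suprachiasmatic neurons are synchronized, stood at 65.4, 64.2 and 52.5 CPM against 3.80, 2.30 and 3.45 CPM (4.22 ± 0.26). *Nms*, which marks a pacemaker population of that nucleus, stood at 35.5, 12.2 and 25.1 CPM against 1.65, 1.32 and 0.872 CPM (4.37 ± 0.35). In the suprachiasmatic gate, 143 of 324 neurons (44.1%) in DOCA-salt 2, 5 of 35 in Sham 1 and 8 of 56 in Sham 2 (both 14.3%) were *Avp* source neurons, and 0 of 15 were in DOCA-salt 1. These nuclei made up 31.8%, 19.2% and 12.3% of the *Avp* source neurons of the 3 libraries, so most *Avp* source neurons lay outside the gate. Summed over the suprachiasmatic gate, *Avp* stood at 0, 6086, 520 and 915 CPM, against 4.89, 379, 79.4 and 168 CPM in neurons of no subclass (log2 fold change 3.31 ± 0.26, adjusted p = 3.9e-13 by edgeR). DOCA-salt 1 held 0 UMIs in 15 nuclei, which allows up to 35.05 CPM and gives no direction.

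*Trh* source neurons held more *Sim1*, *Otp* and *Slc17a6* than other neurons did. Of 14471 genes 2.52% were called, and of the 15 regional genes 4 rose (*Sim1*, *Otp*, *Pou3f2* and *Fezf1*) and 4 fell (*Nr5a1*, *Tbx3*, *Isl1* and *Six6*). *Fezf1* was higher in DOCA-salt 2 and Sham 1 but lower in Sham 2, at 22.3 against 33.1 CPM. *Sim1* stood at 115, 100 and 139 CPM against 17.2, 20.04 and 6.82 CPM (log2 fold change 3.06 ± 0.22) and *Otp* at 295, 168 and 204 CPM against 61.6, 57.7 and 58.3 CPM (1.94 ± 0.12). Both were higher in all 3 libraries with no overlap. *Slc17a6* stood at 347, 484 and 368 CPM against 178, 254 and 238 CPM (0.85 ± 0.08), while *Gad1*, which makes GABA, stood at 172, 102 and 175 CPM against 390, 236 and 274 CPM (-1.02 ± 0.10), and *Slc32a1*, which loads it into vesicles, also fell. Of the 16 co-transmitter genes, 3 rose (*Slc17a6*, *Adcyap1* and *Tac1*) and 8 fell. *Adcyap1*, the gene of the peptide PACAP, stood at 144, 119 and 102 CPM against 50.1, 60.6 and 44.7 CPM. *Pcsk2*, a prohormone convertase, was the 1 pathway gene of 16 that rose (0.73 ± 0.08), and *Rgs2* and *Plcb1* fell. The named genes by fold change were *4922502N22Rik*, *Asic4*, *Gm27239*, *Slc6a13*, *Prdm8*, *Sim2*, *Apobec2* and *Uncx*. Of these, *4922502N22Rik*, *Gm27239*, *Slc6a13*, *Sim2* and *Apobec2* were scarce in other neurons and reached the filter on low counts through the source neurons. Their calls are therefore descriptions. *Asic4*, of the acid-sensing ion channel family, stood at 53.1, 13.6 and 43.0 CPM against 2.84, 2.44 and 3.49 CPM (3.72 ± 0.30). Among *Sim1*-gated neurons, 42 of 233 (18.03%) in DOCA-salt 2 and 14 of 46 (30.4%) in Sham 2 were *Trh* source neurons, whereas 0 of 67 were in DOCA-salt 1. Sham 1 had no *Sim1*-gated neuron. The *Sim1*-gated nuclei made up 13.4%, 0% and 20.3% of the *Trh* source neurons of the 3 libraries tested, so most lay outside the gate. In the ventromedial gate (markers *Nr5a1* and *Fezf1*), 30 of 296 neurons (10.1%) in DOCA-salt 2 were *Trh* source neurons. In Sham 1, 0 of 4 were, and in Sham 2, 1 of 163.

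**Figure D4:**
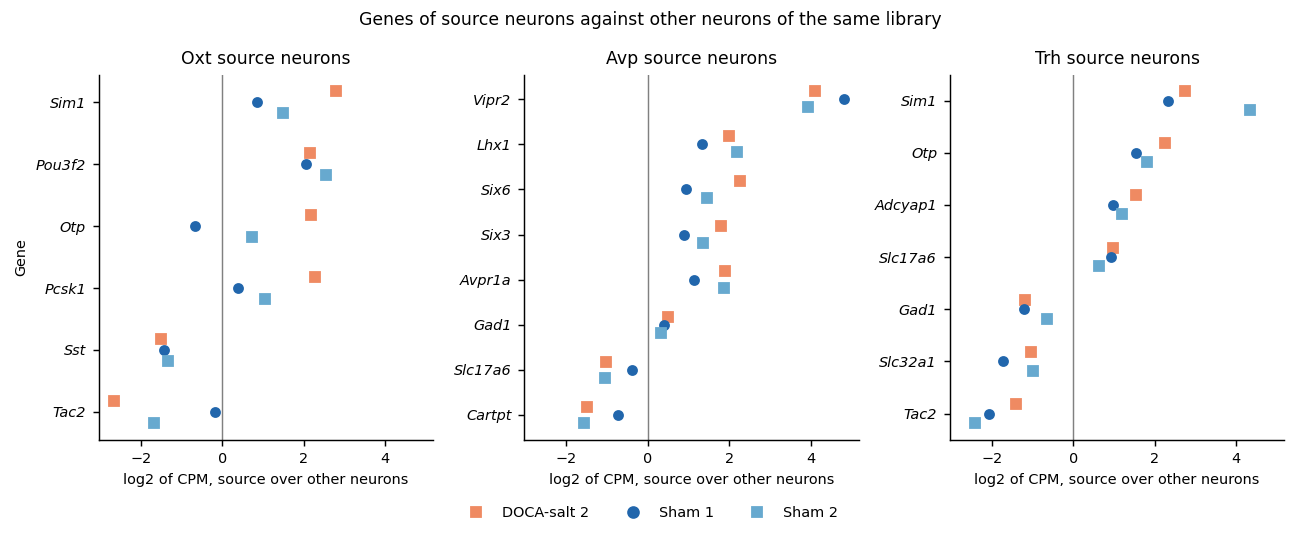
Log2 of the CPM ratio between source neurons and other neurons of the same library, for genes named in the text (6 for *Oxt*, 8 for *Avp* and 7 for *Trh*), with 1 point for each of the 3 libraries that had at least 10 source neurons; points right of 0 are higher in source neurons. Among the genes plotted, the 3 points lie on the same side of 0 except for *Otp* in *Oxt* source neurons, where Sham 1 is below 0. The plot leaves out called genes whose libraries disagreed in direction: *Caprin2* for *Oxt*, *Vip*, *Pou3f2* and *Meis2* for *Avp*, and *Fezf1* for *Trh*.

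Source neurons of 2 peptides were few. In DOCA-salt 2, 16 neurons were source of both *Oxt* and *Avp*, or 18.2% of the *Oxt* and 3.56% of the *Avp* source neurons. In Sham 1 there were 2 (15.4% and 7.69%) and in Sham 2 there were 4 (11.8% and 6.15%). *Oxt* and *Trh* overlapped in 3 neurons of DOCA-salt 2, and *Avp* and *Trh* in 3 of DOCA-salt 2 and 1 of Sham 2. No *Crh* source neuron was a source of another peptide. The other neurons excluded every source neuron, which favors a higher level of one peptide in the source neurons of another. Their test results are therefore not used here, although these genes remain in the counts of genes called. *Avp* stood at 7996, 473 and 4016 CPM in *Oxt* source neurons, and 54 of 88, 5 of 13 and 18 of 34 of them held an *Avp* UMI, with medians of 1, 0 and 1. *Oxt* stood at 2127, 171 and 1216 CPM in *Avp* source neurons. Among nuclei with few peptide UMIs, the ratio of *Oxt* to *Avp* UMIs was 0.738, 1.22, 1.76 and 1.71 in neurons and 1.75, 1.42, 2.00 and 1.65 in oligodendrocytes, where DOCA-salt 1 rested on 7 *Oxt* and 4 *Avp* UMIs.

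The other 7 genes were annotated in mm10 with *Crh* at chr3:19693401-19695396 and *Trh* at chr6:92242061-92244650, and among the receptors *Oxtr* at chr6:112473683-112489943, *Avpr1a* at chr10:122448499-122453452, *Crhr1* at chr11:104132855-104175523, *Crhr2* at chr6:55090049-55133016 and *Trhr* at chr15:44196135-44235912. The receptor transcripts were rare in every library, with at most 6 UMIs in 1 nucleus. *Crhr1* was the receptor that rose in neurons over oligodendrocytes, at 13.0, 7.83, 5.44 and 6.02 CPM against 2.92, 1.09, 2.19 and 1.05 CPM (log2 fold change 2.10 ± 0.60, adjusted p = 0.0036 by edgeR). Each oligodendrocyte value rested on 1 UMI, and without DOCA-salt 2 the adjusted p was 0.0503. *Oxtr* stood at 7.72, 3.48, 4.15 and 4.96 CPM in neurons, and oligodendrocytes held 1, 0, 2 and 0 UMIs, where 0 UMIs allow up to 3.27 CPM in DOCA-salt 2 and 3.14 CPM in Sham 2. Its difference of 1.83 ± 0.77 did not pass (adjusted p = 0.052 by edgeR), but did without Sham 1 (3.18) and without the peptide-rich nuclei (2.39). *Trhr* stood at 13.9, 15.4, 17.0 and 12.4 CPM in neurons and at 11.7, 6.54, 10.97 and 5.23 CPM in oligodendrocytes (0.73 ± 0.33, adjusted p = 0.073). Every library was higher in neurons for *Crhr1* and *Trhr*. *Crhr2* stood at 7.35, 12.1, 5.70 and 6.85 CPM against 5.84, 5.45, 6.58 and 4.18 CPM (0.47 ± 0.42, adjusted p = 0.41), and *Avpr1a* at 4.49, 5.03, 2.79 and 2.57 CPM against 0, 3.27, 4.39 and 3.14 CPM (0.11 ± 0.60, adjusted p = 0.91), and neither passed. *Crh* did not pass either (-0.22 ± 0.53, adjusted p = 0.79). After thinning, neurons with a *Crhr1* UMI made up 1.54%, 0.763%, 0.541% and 0.673%, against 0.870%, 0%, 0% and 0% of oligodendrocytes. At their own depth these shares were 4.84%, 2.97%, 5.20% and 3.31% against 0.442%, 0.124%, 1.30% and 0.226%. For *Trhr* the thinned shares were 1.45%, 1.36%, 1.62% and 1.16% against 0%, 0.590%, 1.30% and 0.275%.

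Some neuron subclasses held more of a receptor than the neurons of no subclass. The contrasts used 8 of the 9 genes, since *Avpr1a* fell below the filter, and each subclass was compared with the same neurons of no subclass. They were added after the values by subclass were seen. *Crhr1* rose in *Agrp* neurons, the hunger-driving cells of the ARC, to 54.7, 6.62, 16.2 and 21.7 CPM against 7.63, 8.38, 5.30 and 4.89 CPM (log2 fold change 2.16 ± 0.30, adjusted p = 7.5e-07 by edgeR, where 8.86% of 11515 genes were called). DOCA-salt 2, whose 22 *Agrp* neurons held 1 *Crhr1* UMI, was not higher, and the call held under all 7 alternatives. *Oxtr* rose in *Pomc* neurons, the satiety-promoting cells of the ARC, to 16.8, 16.2, 11.6 and 13.4 CPM against 8.27, 3.19, 4.00 and 4.83 CPM (1.43 ± 0.32, adjusted p = 0.0032, 5.58% of genes called). The 2 sets of libraries did not overlap, and the call held under the 4 alternatives in which *Oxtr* was tested. Only 1 of these left out a library (1.40), since *Oxtr* fell below the filter in the other such runs. *Pomc* neurons numbered 26 in DOCA-salt 2 and 29 in Sham 1, so these values rested on few UMIs. *Crhr1* also rose in *Sst* neurons, to 35.5, 8.31, 3.71 and 17.95 CPM (1.37 ± 0.29, adjusted p = 0.0039, 1.36% of genes called), although DOCA-salt 2 and Sham 1 stood below their neurons of no subclass and the call was lost in 3 of 7 alternatives. *Crhr2* rose in *Ghrh* neurons, which release growth hormone-releasing hormone, to 18.9, 10.4, 11.03 and 26.7 CPM against 8.04, 13.3, 5.38 and 7.74 CPM (1.25 ± 0.38, adjusted p = 0.045, 4.65% of genes called), with DOCA-salt 2 in the other direction, and this was lost in 4 of 7 alternatives. *Trh* rose in *Ghrh* neurons as well (1.55 ± 0.30, adjusted p = 7.3e-04), at 13.8, 1690, 49.7 and 192 CPM against 28.4, 194, 154 and 113 CPM. DOCA-salt 1 and Sham 1 were lower in *Ghrh* neurons, 6 of the 31 *Ghrh* neurons of DOCA-salt 2 were *Trh* source neurons, and without DOCA-salt 2 the difference was 0.21.

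**Figure D5:**
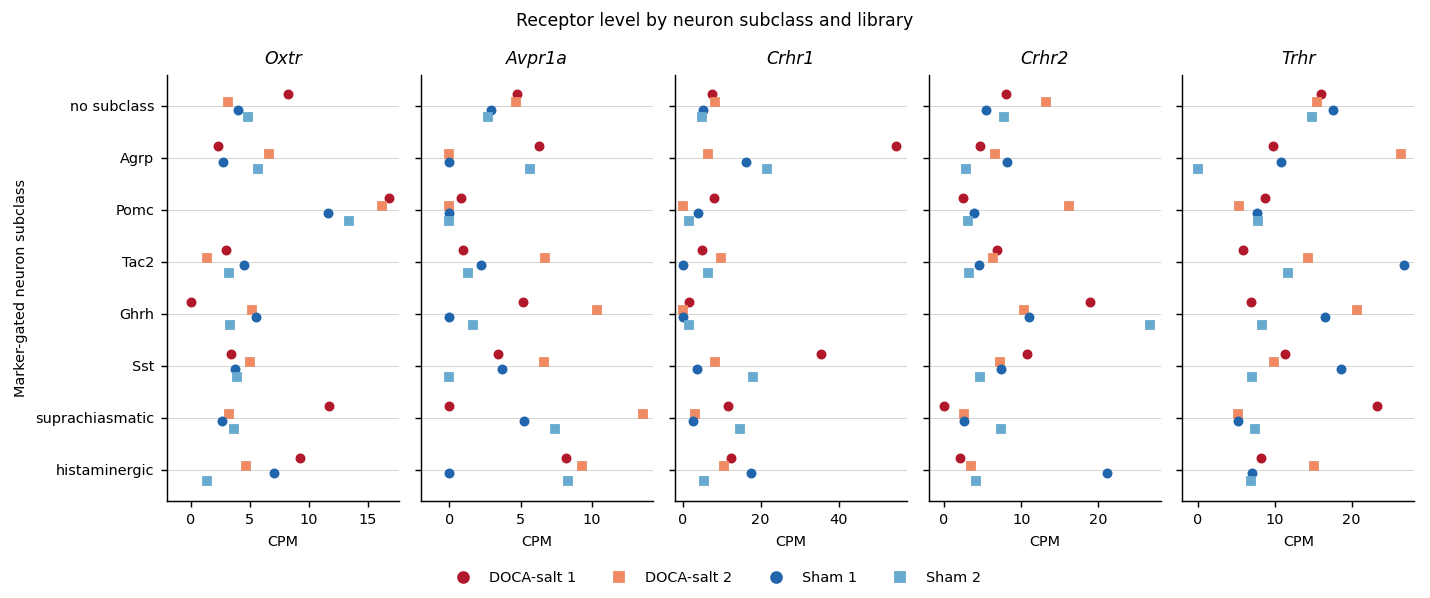
CPM of the 5 receptor genes (columns) in neurons of no subclass and in 7 marker-gated neuron subclasses (rows), with 1 point per library and points at 0 where no UMI was found. *Crhr1* reaches 54.7 CPM in *Agrp* neurons of DOCA-salt 1, and the 4 *Oxtr* points of *Pomc* neurons lie to the right of all 4 of the neurons of no subclass.

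Calls in the lower direction concerned mainly the peptides. *Oxt* fell in *Tac2* neurons (log2 fold change -2.55 ± 0.37, 2.14% of genes called), *Ghrh* neurons (-2.30 ± 0.51), histaminergic neurons (-2.38 ± 0.42, 4.12% of genes called), *Sst* neurons (-1.38 ± 0.34) and suprachiasmatic neurons (-1.29 ± 0.37, 5.21% of genes called). Source neurons of *Oxt* were 0.0216%, 0.606%, 1.03% and 0.809% of the neurons of no subclass. The *Tac2* and *Ghrh* gates held none, and the *Ghrh* gate held only 103, 31, 13 and 66 neurons. In DOCA-salt 2, 1 of 122 histaminergic, 2 of 365 *Sst* and 1 of 324 suprachiasmatic neurons were *Oxt* source neurons, with none in the other libraries. How far the *Oxt* calls rest on these rare nuclei was not tested. *Avp* fell in *Tac2* neurons (-1.35 ± 0.31), and *Trh* fell in *Tac2*, suprachiasmatic and histaminergic neurons (-1.28 ± 0.33, -1.87 ± 0.44 and -1.48 ± 0.41). *Trhr* was the 1 receptor that fell, in suprachiasmatic neurons (-1.37 ± 0.42, adjusted p = 0.047 by edgeR), at 23.4, 5.19, 5.25 and 7.41 CPM against 16.1, 15.6, 17.5 and 14.8 CPM. That call was lost in 4 of 7 alternatives, and DOCA-salt 1 held 2 UMIs. Of 7 alternatives, the *Oxt* calls were lost in 1 for *Tac2*, *Ghrh* and histaminergic neurons and in 2 for *Sst* and suprachiasmatic neurons, the *Avp* call in 2, and the *Trh* calls in 3 for *Tac2* and histaminergic and in 2 for suprachiasmatic neurons. *Crh* was called in none of the subclasses. Orexin neurons, which promote wakefulness and feeding, were present in number only in DOCA-salt 2, so they had no replicate. The 223 orexin neurons there held *Trhr* at 63.3 CPM (82 UMIs) and *Crhr2* at 23.9 CPM (31 UMIs), against 15.6 and 13.3 CPM in neurons of no subclass.

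Among the 5 receptors, *Avpr1a* and *Crhr1* were called in source neurons. In *Avp* source neurons, in the 3 libraries tested, *Avpr1a* stood at 16.2, 6.12 and 9.13 CPM (41, 2 and 4 UMIs) against 4.38, 2.78 and 2.50 CPM in other neurons, a log2 fold change of 1.83 ± 0.37 (adjusted p = 2.1e-05 by edgeR, 10.6% of genes called). It was higher in all 3 libraries, and of 7 alternatives the call was lost in 1, without DOCA-salt 2, where the fold change was 1.61 (adjusted p = 0.58). The suprachiasmatic gate gave *Avpr1a* levels of 0, 13.6, 5.25 and 7.41 CPM, which were not tested. In *Oxt* source neurons *Avpr1a* stood at 22.1, 9.10 and 0 CPM (15, 1 and 0 UMIs; 2.09 ± 0.57, adjusted p = 0.036), and that call was lost in 6 of 7 alternatives. *Crhr1* fell in *Avp* source neurons, to 0.788, 3.06 and 4.56 CPM (2, 1 and 2 UMIs) against 8.18, 5.78 and 6.22 CPM (-2.23 ± 0.59, adjusted p = 0.0026), with the call lost in 2 of 7 alternatives. None of the 5 receptors was called in *Trh* source neurons, including *Trhr*, which stood at 13.8, 11.9 and 20.7 CPM against 15.6, 17.5 and 12.3 CPM (-0.02 ± 0.25).

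None of the 9 genes was called between DOCA-salt and Sham in neurons, where 0% of the 15845 genes tested were called by edgeR (1243 had an unadjusted p under 0.05, and DESeq2 called 82 genes). *Oxt* stood at 5.20 and 1008 CPM in DOCA-salt against 184 and 257 CPM in Sham, and *Avp* at 4.68 and 547 CPM against 86.8 and 179 CPM. In both cases the DOCA-salt libraries enclosed the Sham libraries. Their log2 fold changes were 1.21 ± 1.64 (adjusted p = 0.84 by edgeR) and 1.07 ± 1.55 (adjusted p = 0.85), and the direction was set by DOCA-salt 2. Without it the log2 fold change was -5.49 for *Oxt* (adjusted p = 0.00125 by edgeR) and -4.90 for *Avp* (adjusted p = 0.011), and without DOCA-salt 1 it was 2.20 (adjusted p = 0.0031) and 2.05 (adjusted p = 0.018), with the spread taken from the Sham libraries in both cases. With no filter on low counts the adjusted p were 1.2e-04 and 4.2e-04. *Trh* stood at 23.5 and 218 CPM against 144 and 101 CPM (-0.02 ± 0.88), with 0.83 (adjusted p = 0.047) without DOCA-salt 1 and -2.47 (adjusted p = 0.014) without DOCA-salt 2. *Crh* stood at 3.53 and 4.74 CPM against 11.9 and 2.83 CPM (-0.84 ± 0.64, adjusted p = 0.72).

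Among the receptors, *Avpr1a*, *Crhr1* and *Crhr2* had the larger log2 fold changes, each with both DOCA-salt libraries above both Sham libraries. With 2 libraries against 2 there are only 6 arrangements. The share of all genes separated in this way was not taken, so this is a description. *Avpr1a* stood at 4.49 and 5.03 CPM against 2.79 and 2.57 CPM (log2 fold change 0.80 ± 0.30, adjusted p = 0.63 by edgeR). *Crhr1* stood at 13.0 and 7.83 CPM against 5.44 and 6.02 CPM (0.81 ± 0.29, adjusted p = 0.63), and *Crhr2* at 7.35 and 12.1 CPM against 5.70 and 6.85 CPM (0.61 ± 0.33, adjusted p = 0.67), where *Crhr2* passed without DOCA-salt 1 (0.95, adjusted p = 0.042). None passed the correction over all genes, although the unadjusted p values of *Avpr1a* and *Crhr1* were 0.037 and 0.032. For *Crhr1*, the neurons of no subclass stood at 7.63 and 8.38 CPM in DOCA-salt against 5.30 and 4.89 CPM in Sham. The groups were not tested in these neurons, and the part of *Agrp* and *Sst* neuron numbers in the *Crhr1* values was not tested. *Oxtr* (0.24 ± 0.41, adjusted p = 0.88) and *Trhr* (-0.03 ± 0.24, adjusted p = 0.97) overlapped between the groups. Over all kept nuclei none of the 9 was called either, where 0% of 16564 genes were called, nor were the 3 members tested in oligodendrocytes (0.0109% of genes called) and astrocytes (0.194%).

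Only *Trh* allowed a comparison of treatments within source neurons, and only with a minimum of 5 instead of 10 UMIs, which kept at least 10 such neurons in each library. Of 9750 genes, 3 were called (0.0308%), all lower in DOCA-salt. None of them was *Oxt*, *Avp* or *Trhr*, the members tested there. The level of *Trh* itself was set by the rule and was given no test. *Nts*, the neurotensin gene, stood at 35.1 and 14.1 CPM against 84.8 and 101 CPM (log2 fold change -2.55 ± 0.38, adjusted p = 0.032 by edgeR). *Nts* was also lower in astrocytes, at 6.74 and 13.8 CPM against 126 and 88.2 CPM (-3.27 ± 0.37, adjusted p = 1.4e-05), and stood at 26.3 and 10.9 CPM against 108 and 67.9 CPM in oligodendrocytes (-2.45 ± 0.41, adjusted p = 0.086) and at 29.7 and 31.3 CPM against 211 and 139 CPM in all neurons (-2.56 ± 0.25, adjusted p = 0.15). *Bc1*, a neuronal noncoding RNA, and *Hba-a1*, a hemoglobin gene of red blood cells, were the others, at 105 and 238 CPM against 1842 and 3116 CPM and at 14.1 and 10.8 CPM against 81.7 and 62.0 CPM. Whether the 3 differences belong to *Trh* source neurons or to the free RNA of the libraries was not tested.

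Genes around the peptides were followed as a list of processing enzymes, peptidases, binding proteins and G protein partners, of which 16 of 22 were tested in neurons. Against oligodendrocytes, where 38.3% of all genes were called, 11 rose and 1 fell, with a median log2 fold change of 0.47 against 0.09 for all genes. Those that rose included the amidating enzyme *Pam* (0.77 ± 0.10), the convertases *Pcsk1* (0.84 ± 0.20) and *Pcsk2* (0.79 ± 0.11), and *Trhde* (0.91 ± 0.26), the ectoenzyme that degrades TRH. *Cd38*, an ectoenzyme needed for oxytocin release, fell (-1.001 ± 0.30). It stood at 8.16, 10.0, 11.5 and 11.6 CPM in neurons against 35.0, 20.7, 8.78 and 13.6 CPM in oligodendrocytes. Sham 1 was thus higher in neurons, and Sham 2 differed little. Between DOCA-salt and Sham in neurons none of the 16 passed (median -0.04 against 0.02 for all genes), nor did any of the 16 co-transmitter or 15 regional genes tested.

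Likeness between genes was taken as Pearson's r of log2(CPM + 1) over 73 points, each a class or neuron subclass in 1 library. These points share libraries, and their depth differs widely, so the values are descriptions only. The genes most like *Oxt* were *Avp* (r = 0.79), *Zic1* (0.72) and *Trh* (0.63), and those most like *Avp* were *Oxt*, *Zic1* (0.74) and *Trh* (0.72). *Trh* was most like *Sim1* (0.745), then *Avp* (0.72) and *Rgs10* (0.71). *Crh* and the 5 receptors had no gene above 0.60. Their nearest were *Sbk3* for *Crh* (0.47), *Bscl2* for *Oxtr* (0.51), *Cyth2* for *Avpr1a* (0.57), *4931440F15Rik* for *Crhr1* (0.60), *Tti2* for *Crhr2* (0.55) and *Fgf9* for *Trhr* (0.59), at 517 to 1849 UMIs per gene over all points.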

How the data were processed

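Single-nucleus libraries were deposited as UMI counts per gene and nucleus, made by the authors with Cell Ranger 3.0.1 on mm10 per the submitters' processing notes. Use of intronic reads and the annotation release were not given in the sources used here. Each library pooled 2 mice, and p-values between DOCA-salt and Sham measure only the spread between 2 libraries per group. In the contrasts with library as block, p-values measure the difference between classes of nuclei against a spread across libraries that edgeR shares between genes. In the *Oxt* and *Avp* source contrasts that spread was fully shared, so the own spread of a gene did not enter its p-value. A gene could thus be called there although its libraries disagreed in direction. The SE beside an edgeR log2 fold change was taken as its absolute value over the square root of the F statistic. In the *Oxt* and *Avp* source contrasts the SE therefore does not measure a gene's own spread between libraries. The 9 genes and the gene lists were chosen with earlier results of these data known.

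The filters of the study were applied to each nucleus (over 200 and under 7000 genes, under 25000 UMIs, under 15% mitochondrial UMIs). Nuclei were gated by at least 3 detected markers of a class. Glia also needed 3 times the library mean of the class markers and 2 times the next glial class, and neurons 0.6 times the library mean. These thresholds were set after the data were seen. A subclass needed at least 3 UMIs of its markers and 10 times their free level. A source nucleus held at least 10 UMIs of a peptide and 10 times its level in oligodendrocytes with under 10 UMIs. Shares were also taken after thinning each nucleus to 1000 UMIs, leaving out shallower nuclei. Scrublet called 0, 0, 4 and 0 doublets, so it was taken not to have worked; doublets were kept, and an alternative removed the 850, 2860, 39 and 482 nuclei of highest score (0.8% per 1000 nuclei).

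Counts were summed per library and class and tested with edgeR 4.0.16 (R 4.3.3; TMM, filterByExpr, quasi-likelihood test, Benjamini-Hochberg adjusted p under 0.05 called). Library was a block except between DOCA-salt and Sham. The test of the study, MAST, takes nuclei as replicates and was not used. Subclass contrasts were added after their values were seen. Shares were compared by exact permutation over libraries. Intervals are 95% Clopper-Pearson, and a count of 0 allows up to 3 counts, both for counting error only. Python 3.11.15, scanpy 1.11.5 and scipy 1.17.1 were used, with DESeq2 1.42.0 as an alternative. On simulated data with 200 genes changed by 2 on the log2 scale, 79.2% of those tested were recovered between DOCA-salt and Sham in neurons, and 73.3%, 84.3% and 90.8% in *Oxt*, *Avp* and *Trh* source neurons, with 0 in the wrong direction. In the same order there were 19, 5, 10 and 13 false calls beside 156, 143, 166 and 178 genes recovered. Recovery is an average over genes and was not taken for the 9 genes alone. Between DOCA-salt and Sham in neurons the SE of *Oxt* and *Avp* was 1.64 and 1.55. All 9 genes were named, with the genes of 3 lists (pathway, co-transmitter and regional) and the 8 called genes of highest fold change that were higher in every library tested. Alternatives were RLE size factors, DESeq2, no filter on low counts, no upper limits on nuclei, doublets removed, a stricter gate, other source minimums, a replicate block and each library left out.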

Additional observations from a re-analysis of the deposited data

How the results depend on the processing

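Over 329 alternative values of 38 tests on the 9 genes, 246 kept direction and side of the threshold, 42 kept the direction but lost the call, 15 gained one and 26 changed direction, of which 3 also lost a call. The 38 were the 9 genes between DOCA-salt and Sham in neurons, the 9 between neurons and oligodendrocytes, and only the called tests of the other contrasts. These counts therefore do not cover every test on the 9 genes. Of 22 calls, 3 held under every alternative run: *Crhr1* in *Agrp* neurons, *Oxtr* in *Pomc* neurons and *Avp* in suprachiasmatic neurons. *Oxtr* was tested in 4 alternatives there, whereas *Crhr1* and *Avp* were tested in 7. All 3 calls come from the subclass contrasts, which were added after the values by subclass were seen. The causes were not tested. Where a library left out leaves 1 library in an arm, that library is assumed to vary like the other group. DOCA-salt against Sham within *Oxt*, *Avp* and *Crh* source neurons was not run, since a library held under 10. Depth limits the receptors, with 0 to 6 UMIs per library in oligodendrocytes.

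Genes called between DOCA-salt and Sham numbered 0 in neurons (82 with DESeq2, 299 with no filter on low counts, 14 to 1357 with 1 library left out), 0 in all nuclei (109 with DESeq2, 142 with no filter, 1 to 771), 1 in oligodendrocytes (2 with DESeq2, 55 with no filter, 2 with no upper limits, 17 to 141), 18 in astrocytes (61 with no filter, 5 with no upper limits, 8 with doublets removed, 14 to 412) and 3 in *Trh* source neurons (67 with no filter, 13 to 849). In the contrasts with library as block, oligodendrocyte precursors gave 1905 (1234 to 1717). Subclasses gave 1020 for *Agrp* (289 to 1455), 643 for *Pomc* (413 with DESeq2, 163 to 913), 246 for *Tac2* (85 with DESeq2, 444 with no filter, 49 to 613), 536 for *Ghrh* (142 to 665), 600 for suprachiasmatic (60 to 613), 474 for histaminergic (722 with no filter, 184 to 571) and 157 for *Sst* neurons (60 with DESeq2, 354 with no filter, 46 to 348). Source neurons gave 102 for *Oxt* (13 with DESeq2, 17 to 84), 1516 for *Avp* (496 with DESeq2, 316 to 1436) and 364 for *Trh* (151 with DESeq2, 551 with no filter, 163 to 450).

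Values that changed direction (log2) between DOCA-salt and Sham in neurons were *Trh* with no filter (0.013) and with doublets removed (0.12), and with 1 library left out *Oxt* (-5.49 to 2.20), *Avp* (-4.90 to 2.05), *Crh* (-1.57 to 0.54), *Trh* (-2.47 to 0.83), *Oxtr* (-0.39 to 0.67) and *Trhr* (-0.27 to 0.23). Between neurons and oligodendrocytes they were, with doublets removed, *Oxt* (0.57), *Crh* (0.92) and *Avpr1a* (-0.036), with DESeq2 *Avp* (-0.51), without peptide-rich nuclei, which removes high values by construction, *Avp* (-1.30), *Trh* (-0.20) and *Avpr1a* (-0.024), and with 1 library left out *Oxt* (-2.12 to 0.87), *Avp* (-0.31 to 0.44), *Crh* (-0.71 to 0.84) and *Avpr1a* (-0.19 to 0.38). *Avp* in endothelial cells changed to -0.37 without peptide-rich nuclei and ranged from -0.53 to 2.78. The difference in source share changed sign for *Crh* with a minimum of 20 UMIs (0.0040 percentage points) and for *Trh* after thinning (0.0614), and with 1 library left out ranged from -1.55 to 2.02 for *Avp*, -0.190 to 0.0120 for *Crh* and -2.19 to 0.282 for *Trh*.

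With the replicate number as a block, *Oxt* and *Avp* between DOCA-salt and Sham in neurons changed to -1.54 and -1.24, and 37 genes were called in oligodendrocytes, 35 in astrocytes and 20 in *Trh* source neurons. The labels give only a number, and the correlation of the replicate-1 deviations was -0.339 in neurons over 14611 genes, -0.294 in all nuclei, 0.009 in oligodendrocytes and -0.043 in astrocytes. In neurons and in all nuclei, libraries of the same number thus tended to deviate in opposite directions. What lies behind this was not tested.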
